A study of Homo sapiens with 2 samples.

Results

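Peroxiredoxins, thioredoxins and superoxide dismutases are the enzymes with which a cell removes superoxide and hydrogen peroxide. The 10 genes PRDX1, PRDX2, PRDX3, PRDX4, PRDX5, PRDX6, TXN, TXN2, SOD1 and SOD2 were taken by symbol, and each matched 1 of the 23608 rows of the deposited table. SW13, an established line labelled as human adrenal adenocarcinoma cells, was transfected with Add2-Mhrt779 and Add2-Hotair, plasmids for murine non-coding RNAs, and harvested after 48 hours. One culture condition was used throughout, so both groups carry the plasmids and no untransfected cells were analysed here. The RNA sequencing group is 1 library of total RNA, and the ribosome profiling group is 1 library of the RNA fragments that ribosomes shield from nuclease. Neither assay was replicated. The values therefore carry no spread between cultures, and the assay and the library cannot be told apart. The 2 libraries are called total RNA and footprints below.

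Superoxide dismutases turn superoxide into hydrogen peroxide, SOD1 with copper and zinc mainly in the cytosol and SOD2 with manganese in the mitochondrial matrix. Peroxiredoxins then reduce the peroxide with a reactive cysteine, and thioredoxin, recharged by thioredoxin reductase and NADPH, returns most of them to their active form. PRDX1 and PRDX2 are cytosolic, PRDX3 is mitochondrial and PRDX4 enters the secretory pathway, and all 4 are typical 2-Cys enzymes, in which a cysteine of each partner in a dimer takes part. PRDX5, the atypical 2-Cys enzyme, is found in mitochondria and also in peroxisomes and the cytosol, PRDX6 has a single catalytic cysteine, and TXN and TXN2 are the cytosolic and the mitochondrial thioredoxin.

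The reactive site that defines the peroxiredoxins is shown first, as the codons of 1 GENCODE v29 transcript per gene. The site was searched in frame on the coding strand as CCN, 3 codons of any kind, ACN, 2 codons of any kind and TGN, and capitals mark the codon of the reactive cysteine.
PRDX1: cctcttgacttcacctttgtgTGC
PRDX2: cctctggacttcacttttgtgTGC
PRDX3: cctttggatttcacctttgtgTGT
PRDX4: ccacttgatttcacatttgtgTGT
PRDX5: cctggggccttcacccctggaTGT
PRDX6: cctcgggactttaccccagtgTGC
Each of the 6 genes held 1 match, against a match in 4.76% of 2123 tested genes with a coding transcript. The thioredoxin site, searched in frame as TGN, GGN, CCN and TGN, occurred once in both thioredoxins and in 0.565% of the same genes. Capitals mark the codons of its pair of cysteines.
TXN: TGTgggcctTGC
TXN2: TGTggacccTGC
The coding sequences of the 10 genes stay distinct over the length of a ribosome footprint, since the longest stretch that any pair shared was 17 nt, between PRDX1 and PRDX4.

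Levels are given in FPKM, the authors' fragment counts scaled for transcript length and library size. PRDX1 was the most abundant of these mRNAs in both assays, with 183 FPKM in total RNA and 442 FPKM in footprints. SOD1 had 57.4 and 165 FPKM, and TXN had 56.6 and 121 FPKM. Each of the 3 cytosolic mRNAs stood more than 2 times higher in footprints than in total RNA, as deposited, where the median deposited ratio of tested genes was 1.36-fold. A gene counts as tested here when its mean FPKM over both libraries was at least 10, which 2734 rows passed.

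PRDX5 had 54.1 FPKM in total RNA, close to TXN and SOD1, but 44.3 FPKM in footprints. PRDX6 had 26.1 and 41.2 FPKM, and PRDX4 had 23.9 and 34.9 FPKM. SOD2 had 16.5 and 8.58 FPKM. The last of these was the lowest level among the 8 tested members in footprints, at rank 2432 of 2734 tested genes. PRDX3 had 10.4 FPKM in total RNA, rank 2238, and 44.7 FPKM in footprints, rank 869. It was the lowest of the tested members in total RNA and level with PRDX5 in footprints. TXN2 had 10.3 and 7.63 FPKM, a mean of 8.95 FPKM, just under the filter.

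PRDX2 was listed at 0 FPKM in both libraries with the status NOTEST, and no ratio was formed for it. An exact 0 in this table can be an estimate that failed, so it is not read as a lack of expression. PRDX2 shares that listing with 5931 of 18852 protein-coding rows. Of the 30 nt windows of its coding sequence, 21.2% also occur in transcripts of other GENCODE genes, mostly processed copies such as PRDX2P4 and PRDX2P1. For TXN, which had values in both assays, the share was 38.8%, for PRDX3 22.7%, for PRDX1 15.8%, for PRDX6 14.6% and for TXN2 8.53%. SOD1 and PRDX5 had 2.54% and 1.79%, and PRDX4 and SOD2 had none. In windows of 50 nt, the length of the reads, the share was lower, 14.3% for TXN and 7.89% for PRDX2. PRDX6, PRDX3 and PRDX1 then had 3.21%, 2.64% and 1.28%, and the remaining members had none. How reads that match several places were divided is not given in the sources used here, and the part of the copies in these values was not tested. Of the 28 rows of the glutathione system and other peroxide enzymes, 5 were also listed at 0 in both libraries. GPX1, the widely expressed glutathione peroxidase, was 1 of them.

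**Figure D1:**
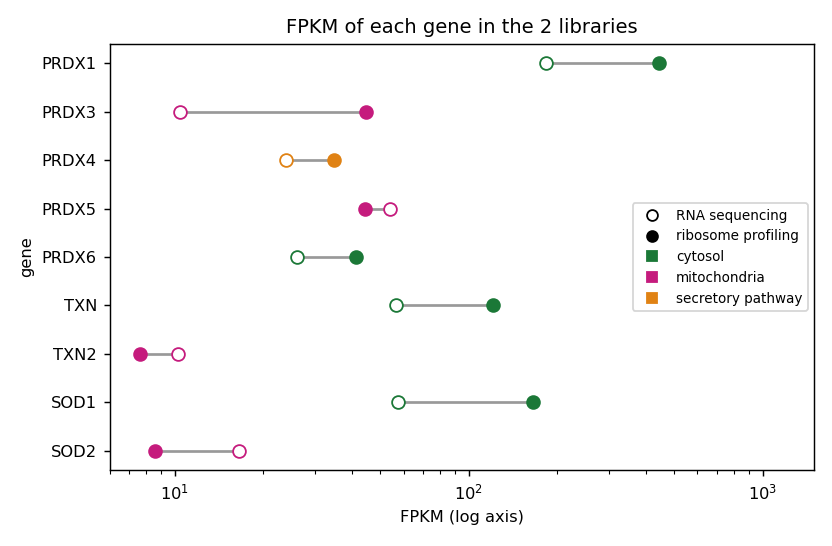
FPKM on a log axis for the 9 genes above 0, with an open circle for total RNA (RNA sequencing) and a filled circle for footprints (ribosome profiling), coloured by main compartment. The filled circle lies to the right for PRDX1, PRDX3, PRDX4, PRDX6, TXN and SOD1, and to the left for PRDX5, TXN2 and SOD2; each point is 1 library.

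To compare genes, the log2 ratio of footprints over total RNA was taken with 1 FPKM added to both values, and the median over tested genes was subtracted. Among the 8 tested members 2, PRDX3 and SOD1, exceeded the median gene by 2-fold or more, against 13.1% of all tested genes, and 1, SOD2, was lower by 2-fold or more, against 19.7%. Among the 2259 tested protein-coding genes the same shares were 10.0% and 14.5%. The other 5 members lay between. SOD2, at 8.58 FPKM in footprints, passed the filter of 10 only through total RNA, so the count below depends on the filter. The members' median log2 ratio was 0.47, or 1.39-fold above the median gene, against 0.039 for tested protein-coding genes, and 6 of 8 were above the median gene, against 51.6% of tested protein-coding genes. With so few members, these shares lie within 1 or 2 genes of the background. The ratio of FPKM is an average over the culture, in which fewer translating cells and fewer ribosomes on each mRNA cannot be told apart.

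Among the peroxiredoxins PRDX3, which clears peroxide in the mitochondrial matrix, had the highest ratio. It lay 3.06-fold above the median gene, at a log2 ratio of 1.61, and 97.3% of tested protein-coding genes had a lower ratio. PRDX1, the main cytosolic enzyme, lay 1.84-fold above. PRDX6, which also has a phospholipase activity, and PRDX4, which oxidizes folding enzymes of the endoplasmic reticulum, lay 1.19-fold and 1.10-fold above the median gene. PRDX4 lay on the other side of the median with a mean FPKM filter of 30 and with footprints scaled to coding length, at -0.038 and -0.48. With a mean of 29.4 FPKM, PRDX4 itself was just under that filter of 30. PRDX5 was the only peroxiredoxin below the median gene, 1.59-fold, at a log2 ratio of -0.67, and stood at 0.0015 with no filter on low values.

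The thioredoxins went to opposite sides of the median gene. TXN, the cytosolic form, lay 1.61-fold above, at a log2 ratio of 0.69. TXN2, whose log2 ratio on the same scale was -0.77, lay 1.71-fold below. The superoxide dismutases stood further apart. SOD1 lay 2.18-fold above the median gene, with a lower ratio in 92.3% of tested protein-coding genes, and SOD2 lay 2.39-fold below, with a lower ratio in 9.96%.

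By main compartment, the 4 cytosolic genes above 0 were PRDX1, PRDX6, TXN and SOD1. All 4 lay above the median gene, against 51.6% of tested protein-coding genes. Their median log2 ratio was 0.79, with a range from 0.25 to 1.12. Of the 4 mitochondrial genes, PRDX5, TXN2 and SOD2 lay below the median gene and PRDX3 above, with a median of -0.72. That median includes TXN2, which was under the filter. PRDX5, which is also found outside mitochondria, stood at 0.0015 with no filter, so the mitochondrial split depends on the setting. Over all settings the mitochondrial median ran from -0.90 to -0.050 and the cytosolic one from 0.61 to 1.46. The ratio of PRDX3 was higher than that of each cytosolic gene. No test of the compartments was made, since the members are not replicates of a compartment.

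**Figure D2:**
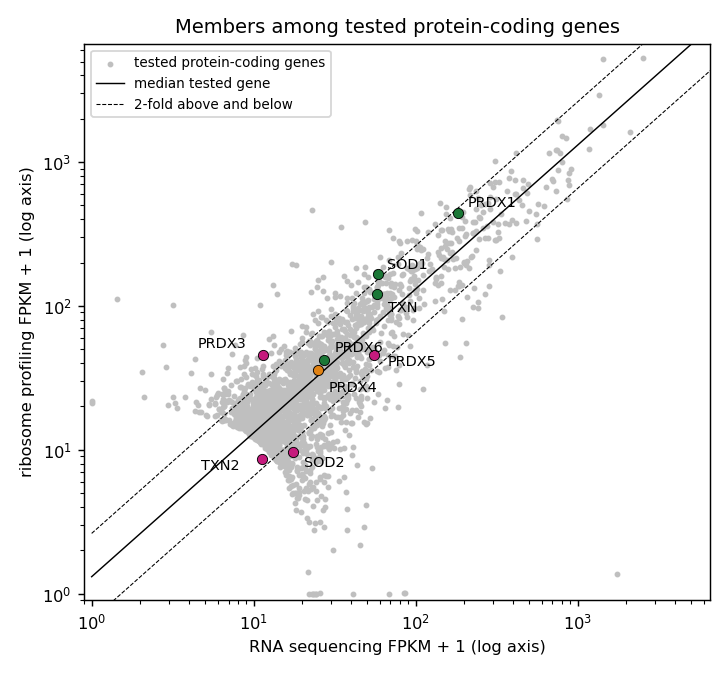
FPKM + 1 in ribosome profiling against FPKM + 1 in RNA sequencing, both on log axes, for tested protein-coding genes (grey) and the 9 members above 0 (green for cytosol, pink for mitochondria, orange for the secretory pathway); the solid line is the median tested gene and the dashed lines are 2-fold above and below. PRDX3 and SOD1 lie above the upper dashed line and SOD2 lies below the lower one.

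The error that the authors' comparison attaches to a ratio is wide for these genes. Its standard error, taken as the size of the deposited log2 ratio over that of the test statistic, ranged from 0.71 for PRDX5 to 1.07 for PRDX1 on the log2 scale in the authors' deposited table. None of the 9 genes was called significant in the authors' deposited table, against 1.30% of the 4849 rows with the status OK. PRDX3 had the lowest p-value of the 9 in the authors' deposited table, 0.00355, and a q-value of 0.142. Its log2 ratio there was 2.10, with a standard error of 0.72, and the 95% interval ran from 0.69 to 3.52. This was the 1 interval of 9 that lay above 0, against 4.16% of 4542 rows with the status OK and a finite ratio, and its lower end also lay above 0.44, the median deposited log2 ratio of tested genes. No interval of the 9 lay below 0, against 7.62% of those rows.

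For SOD1 the authors' deposited table gave a log2 ratio of 1.53 with an interval from -0.25 to 3.30, and for SOD2 -0.94 with an interval from -2.91 to 1.02. PRDX1 and TXN had 1.28 and 1.09 in the authors' deposited table, and both intervals included 0. The q-values of the 8 genes other than PRDX3 ran from 0.422 for SOD1 to 0.885 for PRDX5 in the authors' deposited table.

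**Figure D3:**
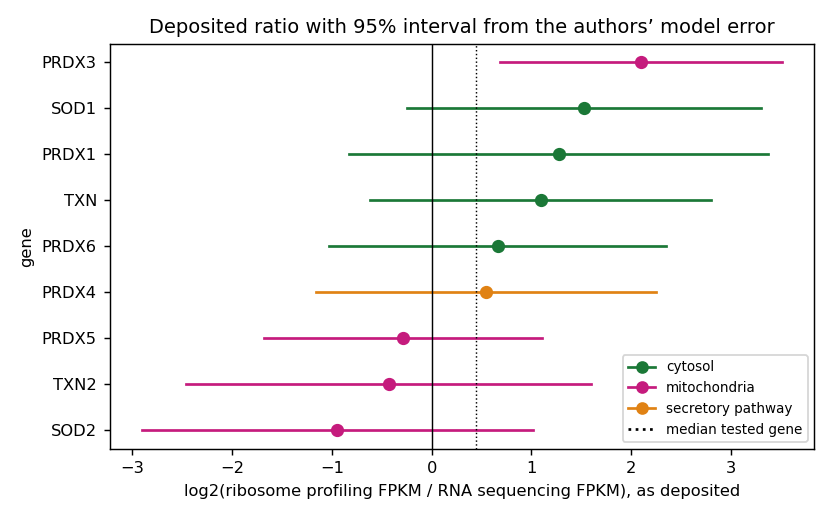
Log2 ratio in the authors' deposited table (points) with 95% intervals from the authors' model error (lines) for the 9 genes above 0, coloured by compartment, ordered by ratio; the solid vertical line is 0 and the dotted one the median tested gene at 0.44. PRDX3 is the gene whose interval, from 0.69 to 3.52, lies right of both lines.

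Differences between members were formed from the same ratios and errors, taken as independent. Of the 36 pairs of the 9 genes, 3 had a 95% interval that excluded 0, and 0 did once the interval was widened for 36 comparisons. All 3 pairs had PRDX3 on the high side. The log2 ratio of PRDX3 exceeded that of SOD2 by 3.05 in the authors' deposited table, with an interval from 0.63 to 5.47, and that of PRDX5 by 2.39, with an interval from 0.41 to 4.38. For PRDX3 and TXN2 the difference in the authors' deposited table was 2.53, and the interval, from 0.057 to 5.01, barely excluded 0. The partners of the other families were not separated by this error. SOD1 exceeded SOD2 by 2.47 in the authors' deposited table, with an interval from -0.17 to 5.12, and TXN exceeded TXN2 by 1.52, with an interval from -1.14 to 4.18. Neighbours in the order of ratios, PRDX3, SOD1, PRDX1, TXN, PRDX6, PRDX4, PRDX5, TXN2 and SOD2, did not differ beyond this error in any case.

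The transcripts of these genes are short. In the GENCODE v29 transcripts used here, the coding part had a median of 642 nt for the 9 genes above 0, against 1012.5 nt for 2048 tested protein-coding genes, and the whole transcript 1005 nt against 2074 nt. FPKM divides by the whole transcript, whereas elongating ribosomes cover the coding part, so the coding share of the length was set beside the ratio. It was 80.9% for PRDX4, 71.9% for PRDX5, 67.3% for SOD2, 58.5% for PRDX1, 48.3% for PRDX3, 47.8% for SOD1, 38.4% for PRDX6, 36.2% for TXN and 28.7% for TXN2. Ranked by share, the middle 705 of 2116 tested protein-coding genes ran from 44.9% to 67.8%. PRDX3 and SOD1, with high ratios, and SOD2, with a low ratio, all lay within this range, SOD2 near its upper end. For SOD2 the share depends on the transcript, from 20.5% to 67.4% over 6 coding transcripts, and for TXN2 from 15.0% to 54.6% over 3. Across 2116 tested protein-coding genes, which are not independent replicates, Spearman's rho between share and ratio was 0.079.

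Scaling footprints to the coding length, a setting chosen after the data were seen, raised TXN from 0.69 to 1.24 and TXN2 from -0.77 to -0.0092 and lowered PRDX5 from -0.67 to -1.12. PRDX3, SOD1 and SOD2 then stood at 1.74, 1.27 and -1.65. On that scale 3 members exceeded the median gene by 2-fold or more, against 17.3% of 2116 tested protein-coding genes, and 2 were lower by as much, against 16.4%. With no change of length, TXN2 stood at -0.10 with no filter and at -0.23 with a mean FPKM filter of 1. Over all settings it ran from -0.95 to -0.0092. The distance of TXN2 from the median gene therefore rested on the setting, the filter as well as the length used.

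**Figure D4:**
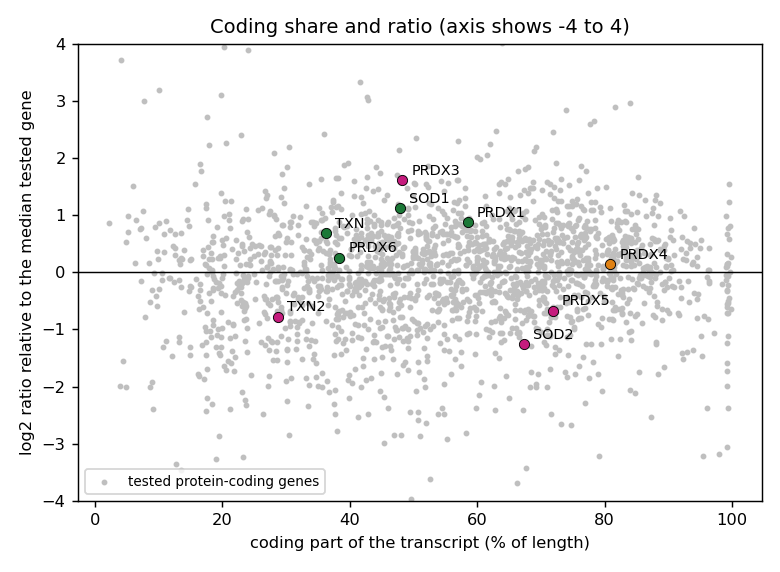
Log2 ratio relative to the median tested gene against the coding part of the transcript in percent of its length, for tested protein-coding genes (grey) and the 9 members above 0 (coloured by compartment as in the plot of both assays); the vertical axis leaves out the most extreme grey points. PRDX4 lies furthest right at 80.9% and TXN2 furthest left of the members at 28.7%, and the grey points show little slope.

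The start of the reading frame is where the scanning ribosome commits to translation, and it is shown for 5 of the mRNAs set side by side above. Each window holds 10 bases before the start codon, the start codon in capitals and 7 bases after it.
PRDX3: tgcactgaagATGgcggctg
PRDX5: tggggcgggtATGggactag
TXN: agcagccaagATGgtgaagc
TXN2: ttgcagggagATGgctcagc
SOD2: cactagcagcATGttgagcc
All 10 genes had a purine at the third base before the start codon, as did 91.6% of 2048 tested protein-coding genes. The base right after the start codon was G in 7 of 10, PRDX1, PRDX6 and SOD2 being the exceptions, against 53.1%. An upstream ATG occurred in 1 of 10, against 39.4%, and the gene was TXN2, with 2 of them in a leader of 467 nt. These are features of the annotated transcripts, and the transcript starts used in SW13 cells were not measured.

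Around these enzymes, 4 lists of related genes were examined. The thioredoxin system partners were thioredoxin reductases, glutaredoxins, proteins with a thioredoxin fold, SRXN1, TXNIP, MSRA, MSRB1, MSRB2 and MSRB3. They had 21 rows, of which 6 were tested. By 2-fold or more, 1 was higher than the median gene and 3 were lower, with a median log2 ratio of -0.95, against 13.1% and 19.7% of all tested genes and a median of 0. Each of these 4 genes was under 10 FPKM in the library where it was lower and passed the filter through the other one, so the counts and the median depend on the filter. TXNDC9, named with its values known, had 2.09 and 16.3 FPKM and was just under it, at 4.28-fold above the median gene. TXNRD1, the cytosolic reductase that recharges TXN, had 47.7 FPKM in total RNA and 35.2 FPKM in footprints, a ratio 1.76-fold below that of the median gene. TXNDC17, a small cytosolic thioredoxin-like protein, had 3.55 and 19.3 FPKM and the highest ratio of the 6 tested genes, 3.41-fold above. TXNL4A, a component of the spliceosome despite its name, had 15.0 and 6.57 FPKM, 2.76-fold below. TXNL1, which binds the proteasome, had 10.9 and 23.9 FPKM. TXNDC5, a folding enzyme of the endoplasmic reticulum whose row shares its locus with a read-through gene and is uncertain, had 16.6 and 9.84 FPKM. The median of this list lay at 0.20 with a mean FPKM filter of 1 and at 0.061 with footprints scaled to coding length, so its direction rests on those choices.

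The glutathione system and other peroxide enzymes had 28 rows and 8 tested genes, with a median of -0.0014. By 2-fold or more, 1 was higher than the median gene and 0 lower, against 13.1% and 19.7% of all tested genes. The higher one, GSTO1, was under 10 FPKM in total RNA and passed the filter through footprints. GSTP1, a glutathione transferase, had 46.2 and 49.2 FPKM. GLO1, the glyoxalase that detoxifies methylglyoxal, had 42.4 and 37.1 FPKM. GPX4, the selenoenzyme that reduces lipid peroxides, had the lowest ratio of the 8 tested genes with 32.6 and 26.7 FPKM, 1.59-fold below, and GSTO1 the highest of them with 8.67 and 35.6 FPKM, 2.89-fold above. Catalase (CAT), singled out with its values known, had 3.44 and 7.83 FPKM, below the filter and below PRDX1 in both libraries.

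NFE2L2, also called NRF2, is the transcription factor that induces many of these genes, and it had 12.2 and 16.1 FPKM. Its pathway and targets had 17 rows and 11 tested genes, with a median of -0.0094. By 2-fold or more, 0 were higher than the median gene and 1 was lower, against 13.1% and 19.7% of all tested genes. FTL and FTH1, the chains of the iron store ferritin, had 148 and 91.7 FPKM and 77.7 and 80.8 FPKM, and FTL was the lowest of the 11 tested genes at 2.11-fold below. BLVRB, a biliverdin reductase, had 50.8 and 79.3 FPKM. Ribonucleotide reductase subunits and other proteins linked to thioredoxin or redox control had 8 rows and 5 tested genes, with a median of 0.20. All 5 lay within 2-fold of the median gene, a range that 13.1% of all tested genes exceeded and 19.7% fell below. RRM2, a subunit of ribonucleotide reductase, had 27.4 and 33.9 FPKM, PARK7, a redox-sensitive protein, had 72.6 and 60.4 FPKM, and PDCD5 had 46.8 and 96.7 FPKM. Of the 74 rows of the 4 lists 39 had the status OK in the authors' deposited table, and 0 of these were called significant, against 1.30% of all rows with that status.

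Among partners that act on the members, and named here with their values known, TXNRD1 passed the filter and the following 3 did not. CCS, the chaperone that loads copper into SOD1, had 6.68 FPKM in total RNA and 3.13 FPKM in footprints. SRXN1, the sulfiredoxin that repairs overoxidized peroxiredoxins, had 6.02 and 1.39 FPKM. TXNRD2, the mitochondrial reductase that serves TXN2, had 2.24 and 4.14 FPKM, and TXN2 itself was under the filter as well.

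**Figure D5:**
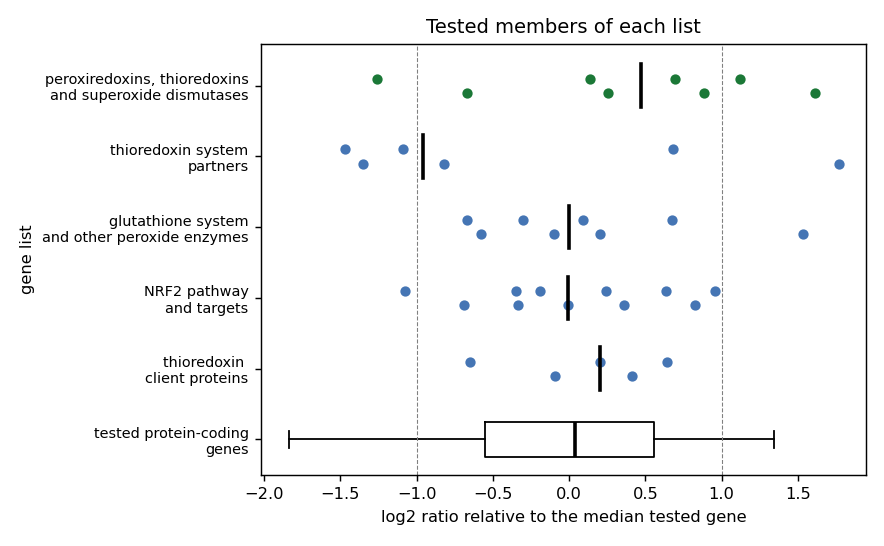
Log2 ratio relative to the median tested gene for the tested members (green) and the tested genes of 4 related lists (blue), with the median of each as a black bar; the box shows the quartiles and the whiskers the 5th and 95th percentiles of tested protein-coding genes, and the dashed lines mark 2-fold. The members' median of 0.47 lies right of the medians of the 4 lists, and the values overlap widely.

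The genes nearest to the extremes in both libraries were sought by distance in log2(FPKM + 1), which over 2 libraries means only a like pair of levels. IK and PLBD1 were among the 3 nearest to PRDX3, at distances of 0.15 and 0.18, and EHBP1L1 and LARP1 were among the 3 nearest to SOD2, at 0.053 and 0.069.

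Facts that bear on the whole table are few. FPKM keeps no read depth, so the depth behind each value is unknown and no counting interval is given. The mRNAs of ACTB and GAPDH, common references, had log2 ratios of -0.17 and 0.13. All 8 marker genes of the adrenal cortex examined and all 4 of the adrenal medulla were listed at 0 in both libraries, as PRDX2 was, so these genes do not show the labelled tissue of origin, and the zeros are not read as a lack of expression. Of the epithelial markers KRT8 and KRT18 had 41.9 and 57.2 FPKM in total RNA, and EPCAM and CDH1 were listed at 0. The fibroblast list and the immune list each summed to at most 1.97 FPKM in either library. Of the 3 genes examined for the SW13 line, VIM had 490 FPKM in total RNA and 707 FPKM in footprints. SMARCA4 had 3.99 and 0.68 FPKM, and SMARCA2 had 1.72 and 1.75 FPKM. PRDX1 shares its locus in the table with MMACHC, which had 0.42 and 0.65 FPKM, and no other member's locus overlaps another row. In hg19 the loci are on chromosome 1 from 45965856 to 45988562 for PRDX1 and from 173446486 to 173457946 for PRDX6, on chromosome 10 from 120927215 to 120938345 for PRDX3, on chromosome 11 from 64085560 to 64089295 for PRDX5, and on chromosome X from 23685645 to 23704514 for PRDX4. PRDX2 lies on chromosome 19 from 12907634 to 12912694, TXN on chromosome 9 from 113006092 to 113018920, TXN2 on chromosome 22 from 36863093 to 36877687, SOD1 on chromosome 21 from 33031935 to 33041243 and SOD2 on chromosome 6 from 160100149 to 160114353.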

How the data were processed

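Per the labels' protocols, 10000000 SW13 cells received 5 µg of plasmid, and total RNA and ribosome-associated fragments were read from both ends at 50 nt, 1 library each. The deposited table gives FPKM per gene and library as the authors computed them, with a log2 ratio, a test statistic (a score), a p-value and a q-value. Per the submitters' processing notes, bedtools 2.16.1, SAMtools 0.1.18, Bowtie2 2.0.0.6 and TopHat2 2.0.8b were used with mm10 and hg19. The program behind the table, and whether it scaled the libraries to each other, is not given in the sources used here.

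From these values, the ratio log2((ribosome profiling FPKM + 1)/(RNA sequencing FPKM + 1)) was centred on its median, 0.39, over 2734 genes with a mean FPKM of at least 10, leaving out rows of status FAIL or HIDATA. The pseudocount understates the change of low genes. With 1 library a group no test was run, and genes at least 2-fold from the median were counted. Deposited p-values followed from the statistic by a normal distribution, two-sided, to within 0.001 in 100% of rows of status OK and finite ratio, so the ratio over the statistic was used as the model error for intervals. That error holds no spread between cultures. The ratio step was tested on simulated data. Gene class came from RefSeq (GRCh38.p14), by symbol.

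Sequences and lengths came from 1 GENCODE v29 (GRCh38) coding transcript per gene, no longer than the locus in the table, by APPRIS rank, RefSeq link, support level and length. Coding lengths leave out the stop codon. Of tested protein-coding genes, 93.7% had one.

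Named genes were all members, in each list the 3 most abundant tested genes with the pair of extreme ratios, the 3 genes nearest to the extreme members, ACTB and GAPDH. Some of these are not reported here. Members and lists were chosen with earlier results of these data known. Python 3.11.15, pandas 2.3.3 and scipy 1.17.1 were used.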

Additional observations from a re-analysis of the deposited data

How the results depend on the processing

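No paired analysis was possible because each assay had 1 library. Ratios were recomputed under 11 alternatives, 1 of them chosen after seeing the data. Leaving out genes differently moves all ratios together, by 0.55 with a mean FPKM filter of 1, 0.67 with no filter, -0.18 with a filter of 30 and 0.39 without centring. PRDX3 lay between 1.36 and 2.29, SOD1 between 0.95 and 1.80 and SOD2 between -1.65 and -0.59. PRDX3 had the highest and SOD2 the lowest ratio of the 9 genes throughout. Only the pseudocounts, the authors' deposited log2 ratio and the scaling to coding length could have changed that order. The other settings shift all ratios by the same amount.

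The 2-fold was counted from the median gene or, without centring, from equal FPKM in the 2 libraries. Members at least 2-fold above numbered 2, against 4 with a filter of 1, with no filter and without centring, and 0 with a filter of 30, which leaves 5 members. The share of all tested genes above was 13.1%, and 15.5%, 16.1%, 23.6% and 15.6% with those 4 settings. Members at least 2-fold below numbered 1, against 0 with those 4 settings and with a pseudocount of 5, and 2 with scaling to coding length. The share of all tested genes below was 19.7%, and 19.6%, 15.0%, 14.2%, 22.3%, 16.5% and 16.4% in that order. The median of the thioredoxin system partners, -0.95, moved to 0.20 with a filter of 1, 0.45 with no filter and 0.061 with scaling to coding length.

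Counts in the related lists moved as follows. Over all tested genes the share above was 13.1%, against 15.5% with a filter of 1 and 16.1% with no filter. It was 15.6% with a filter of 30 and 23.6% without centring. The share below was 19.7%, against 19.6%, 15.0%, 22.3% and 14.2% in that order. With scaling to coding length 17.3% were above and 16.4% below. The share above was 13.9% with a pseudocount of 0.1 and 12.2% with the authors' deposited log2 ratio. A pseudocount of 5 gave 16.5% below. Thioredoxin partners at least 2-fold above numbered 1, against 6 with a filter of 1 and with no filter, 0 with a filter of 30, and 2 without centring and with scaling to coding length. Those below numbered 3, against 0 with a filter of 30 and with scaling to coding length, 1 without centring, and 2 with a pseudocount of 5, a filter of 1 and no filter. In the glutathione list the count above was 1, against 4 with a filter of 1 and with no filter, 0 with a filter of 30 and 2 without centring, and the count below was 0, against 3 with a filter of 1 and with no filter. For the NRF2 list the count above was 0, against 1 with a pseudocount of 0.1, with the authors' deposited log2 ratio and with scaling to coding length, 3 with a filter of 1 and without centring, and 4 with no filter. Its count below was 1, against 0 with a pseudocount of 5, with a filter of 1 and without centring, and 2 with scaling to coding length. In the list of thioredoxin clients the count above was 0, against 1 with a filter of 1 and without centring and 2 with no filter, and the count below was 0, against 1 with a filter of 1 and with no filter. Looser filters test more genes, and stricter ones fewer, so these counts are over changing numbers of genes. All tested genes numbered 2734, against 10853 with a filter of 1, 14514 with no filter and 1169 with a filter of 30. Other causes were not tested.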
